A study of Mus musculus with 25 samples.

Results

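The insulin and insulin-like growth factor (IGF) signalling genes Igf1, Insr, Igf1r, Irs1, Irs2, Grb14, Pik3r1, Akt2, Foxo1 and Foxo3 were followed in mouse myocardium, by summing the abundance of the transcripts listed for each gene symbol. They are 10 of the 11984 genes that passed a filter on low values, all 10 passed it, and all 10 were above 0 in every mouse. The mRNA of 25 male littermates was sequenced, from heart tissue whose extraction label reads left ventricular, with 5 mice in each of 5 groups, of which WT CNTL were wild-type mice on a control diet with 6% of energy from fat and WT HFHS were wild-type mice on a high fat, high sucrose diet with 35.5% of energy from fat. GPx4+/- CNTL and GPx4+/- HFHS mice were on the same diets and were heterozygous for Gpx4, which encodes glutathione peroxidase 4, an enzyme that reduces lipid peroxides, and WT HFHS + Carnosine mice drank the dipeptide carnosine at 80 mM from week 7. Diets began at 8 to 10 weeks of age and lasted 16 weeks, the line was kept by backcross to C57BL6/J, and carnosine in GPx4+/- mice was not analysed here. Mice were killed after a fast followed by an injection of either dextrose or saline, and the labels do not say which mouse received which, so that the insulin state at the time of sampling is not known for any mouse. In whole tissue, fewer cells of a type and less RNA per cell cannot be told apart.

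Insulin binds the receptor encoded by Insr, and IGF1 binds the receptor encoded by Igf1r, and both receptors phosphorylate the adaptor proteins IRS1 and IRS2. The adaptors recruit phosphatidylinositol 3-kinase, whose regulatory subunit is encoded by Pik3r1, and this activates the kinases of the Akt family, which move the glucose transporter encoded by Slc2a4 to the cell surface and keep FOXO transcription factors out of the nucleus. GRB14 binds the insulin receptor and inhibits its kinase. In heart muscle the pathway is known for control of glucose uptake, protein turnover and cell growth.

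Values are TPM, an abundance corrected for transcript length in which all RNAs of a library share 1 total, divided by a scaling factor per library (0.864 to 1.16), since the share of TPM in mitochondrial transcripts ran from 31.3% to 48.7% over the libraries. TPM keeps no read depth, so no counting error is given. Gpx4 was at 251 to 357 scaled TPM in GPx4+/- CNTL and 324 to 383 in GPx4+/- HFHS, below every WT CNTL (591 to 709) and WT HFHS mouse (601 to 778), a log2 fold change of -1.08 over both diets (standard error 0.0614, adjusted p = 1.59e-09 from limma). Ventricular cardiomyocyte markers were high in all libraries, between 37706 and 47367 scaled TPM summed over 6 genes. Atrial markers (5 genes) summed to 30.6 to 276 scaled TPM in 20 mice and stood apart in 5, against a purely ventricular label, at 4566 in WT CNTL replicate 3, 7347 and 1481 in GPx4+/- CNTL replicates 1 and 2, 2695 in GPx4+/- HFHS replicate 4 and 580 in WT HFHS + Carnosine replicate 2. Hepatocyte markers (6 genes) summed to 1053 in GPx4+/- CNTL replicate 2 and to at most 71.5 elsewhere, and smooth muscle markers (4 genes) to 521 in WT HFHS replicate 4 and to at most 245 elsewhere. Results that rest on these 6 mice are given with and without them.

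By level, the genes fell into a high and a low range. Grb14 (mean over the 25 mice 99.8 scaled TPM) and Akt2 (89.2) stood at percentiles 93.6 and 93.1 of the genes tested, Pik3r1 (36.2), Foxo3 (27.6) and Insr (26.8) followed, and Foxo1 (4.18), Igf1r (3.54), Irs2 (3.33), Igf1 (3.09) and Irs1 (2.89) were all in the lowest 27.9% of genes tested. Among Igf1r, Irs2, Igf1 and Irs1, neighbours in this order differed by less than the SD between mice of either gene. Akt2 and Foxo1 varied least between mice, with coefficients of variation of 6.95% and 6.45%, while Irs2 (34.2%) and Igf1 (40.2%) varied most.

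**Figure D1:**
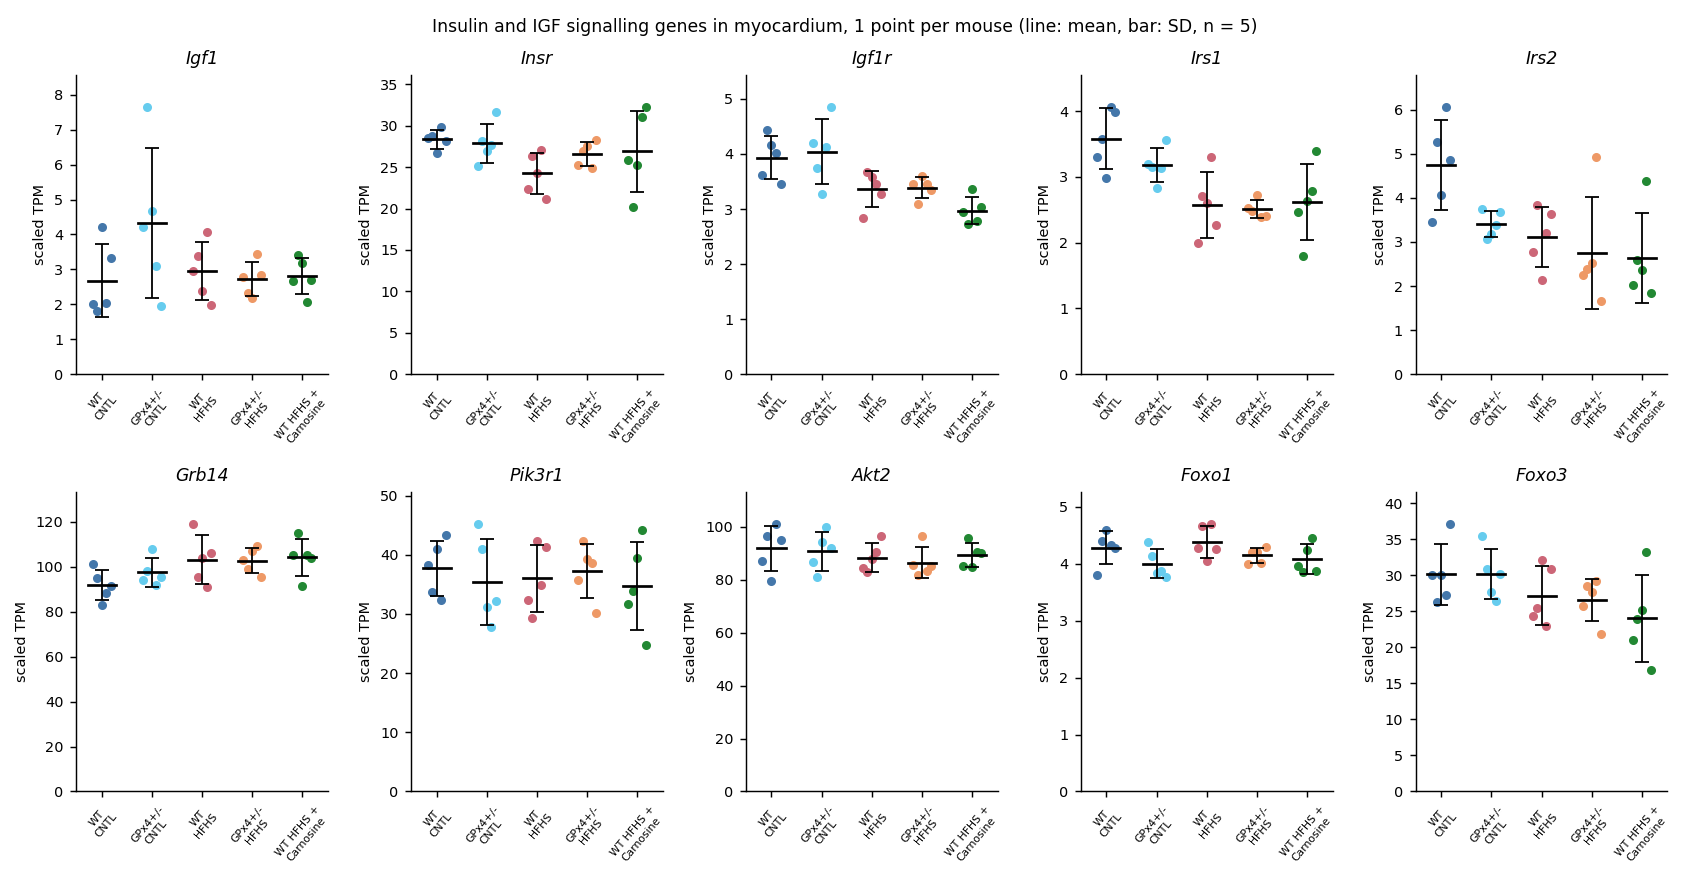
Scaled TPM (vertical axis, from 0) of the 10 genes in single mice, by group. Each point is 1 mouse, the horizontal line the mean and the bar the SD (n = 5). Irs1 is lower in GPx4+/- HFHS (2.39 to 2.73) than in every GPx4+/- CNTL mouse (2.83 to 3.56), Igf1r is lower in WT HFHS + Carnosine (2.73 to 3.36) than in every WT CNTL mouse (3.46 to 4.43), and Akt2 and Foxo1 overlap in all 5 groups.

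The first question was how the HFHS diet changed these genes. Irs1 was lower on HFHS in WT and with the genotypes combined, and Igf1r was lower with the genotypes combined. In GPx4+/- alone Irs1 had an estimate of -0.29 that missed the threshold. Irs2 and Insr, with the genotypes combined, had estimates below 0 whose adjusted p from limma was just above the threshold of 0.05. In either genotype alone their adjusted p from limma was between 0.101 and 0.673. Pik3r1, Akt2 and Foxo1 had estimates close to 0. Called means an adjusted p under 0.05 from limma, with the Benjamini-Hochberg adjustment over all 11984 genes. In WT, 1 of the 10 genes was called (Irs1, lower), where 1.18% of all genes tested were called. In GPx4+/-, 0 of the 10 were called by limma (2 at an unadjusted p under 0.05, Irs1 and Igf1r) against 3.34% of all genes (18.3% at an unadjusted p under 0.05), and over both genotypes 2 of the 10 were called (Irs1 and Igf1r, both lower) against 8.33% of all genes. At an unadjusted p under 0.05 from limma, 5 of the 10 passed in WT (background 16.5%) and 6 over both genotypes (background 24.5%). The median log2 fold change of the 10 genes was -0.11 in WT, -0.12 in GPx4+/- and -0.15 over both genotypes, beside 0.00 for all genes tested in each. Ventricular cardiomyocyte markers had a median of -0.13 over both genotypes, with 4 of 6 estimates below 0 and 2 above it, 4 of 6 at an unadjusted p under 0.05, and 1 called by limma (Myh6, the main cardiac myosin heavy chain, named after its values were seen, at -0.17 with adjusted p = 0.0314). Their summed level was 41008 to 47345 scaled TPM in WT CNTL, 39336 to 47367 in GPx4+/- CNTL, 37706 to 44201 in WT HFHS and 38055 to 43188 in GPx4+/- HFHS, and their part in the results for the 10 genes and for Slc2a4 was not tested. Atrial markers had 5 of 5 estimates below 0 (median -0.94 over both genotypes, -0.43 in WT and -1.45 in GPx4+/-) and hepatocyte markers 5 of 5 tested (median -0.33), with 0 called by limma in either list (1 and 0 at an unadjusted p under 0.05). Atrial markers summed to 127 to 4566 scaled TPM in WT CNTL, 130 to 7347 in GPx4+/- CNTL, 30.6 to 276 in WT HFHS and 46.8 to 2695 in GPx4+/- HFHS, and hepatocyte markers to 2.21 to 9.58, 2.23 to 1053, 2.11 to 15.5 and 2.35 to 71.5 in the same order of groups. Their part was not tested beyond the values given below without the 6 mice. Over both genotypes, fibroblast markers were higher in estimate in 6 of 6 (2 called, median 0.32). Smooth muscle (4 of 4), macrophage (6 of 6) and endothelial markers (5 of 5) were also higher, with 0 called (medians 0.57, 0.15 and 0.08). An unadjusted p under 0.05 from limma was found for 5, 3, 2 and 1 markers of these lists. The 1 adipocyte marker tested was lower in estimate (-0.42, not called). The part of these lists was not tested either. Of the genes called over both genotypes 56.2% were higher on HFHS, and 20.1% were higher with TPM as deposited; in GPx4+/- these shares were 65.2% and 8.73%.

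Irs1 (ENSMUSG00000055980, chromosome 1 from 82233101 to 82291416 of GRCm38, minus strand) encodes the insulin receptor's main adaptor in muscle, and 1 protein-coding transcript was listed for it. Its scaled TPM was 3.30, 3.58, 2.98, 4.07 and 3.99 in WT CNTL and 1.99, 2.71, 2.60, 3.30 and 2.27 in WT HFHS. It was 3.20, 3.15, 2.83, 3.14 and 3.56 in GPx4+/- CNTL and 2.53, 2.48, 2.73, 2.39 and 2.41 in GPx4+/- HFHS. In GPx4+/- the lowest CNTL mouse was above the highest HFHS mouse, whereas in WT the ranges overlapped through WT HFHS replicate 4, the mouse with the most smooth muscle marker RNA. The fitted log2 fold change was -0.42 in WT (standard error 0.0996, adjusted p = 0.0459), -0.29 in GPx4+/- (standard error 0.0996, adjusted p = 0.122) and -0.35 over both genotypes (95% confidence interval -0.50 to -0.21, adjusted p = 0.00444, from limma). Two-sided exact permutation tests of the scaled TPM gave p = 0.0238 in WT and p = 0.00794 in GPx4+/-, the smallest that 5 mice against 5 allow, and 1.94% of all genes were lower without overlap in that comparison. The 2 diet effects were not shown to differ, with a difference of 0.13 (95% confidence interval -0.17 to 0.42), which was 0.28 without the 6 mice, 0.21 without WT HFHS replicate 4 and 0.06 without WT HFHS replicate 1. Over both genotypes Irs1 was called in all 20 fits that left out 1 mouse and without the 6 mice (-0.41, adjusted p = 0.00470). In WT alone it was called in 2 of 10 such fits, those without WT CNTL replicate 3 (-0.47, adjusted p = 0.0261) or WT HFHS replicate 4 (-0.50, adjusted p = 0.0190), and lost the call without any other single mouse (adjusted p up to 0.121). Without the 6 mice, which include both of these, the WT estimate was -0.55 and was called (adjusted p = 0.0199). By mean level the order of the groups was WT CNTL 3.58 ± 0.458, GPx4+/- CNTL 3.18 ± 0.261, WT HFHS + Carnosine 2.62 ± 0.578, WT HFHS 2.57 ± 0.495 and GPx4+/- HFHS 2.51 ± 0.137 (SD, n = 5 each), and the means on HFHS differed from each other by less than the spread between mice.

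Irs2 (ENSMUSG00000038894, chromosome 8 from 10984681 to 11008458, minus strand), the second adaptor of the pathway, also had 1 listed transcript. It was at 3.46, 5.27, 4.07, 6.07 and 4.87 scaled TPM in WT CNTL and at 2.77, 3.83, 2.14, 3.20 and 3.63 in WT HFHS. It was at 3.75, 3.06, 3.19, 3.39 and 3.67 in GPx4+/- CNTL and at 2.25, 2.39, 2.53, 4.93 and 1.66 in GPx4+/- HFHS. In WT all CNTL mice but replicate 1 were above all HFHS mice, and in GPx4+/- all HFHS mice but replicate 4 were below all CNTL mice. The estimate over both genotypes was -0.44 (95% confidence interval -0.72 to -0.15), which missed the threshold (adjusted p = 0.0513 from limma). Without GPx4+/- HFHS replicate 4, which had 2695 scaled TPM of atrial markers, the estimate was -0.54 and passed (adjusted p = 0.00413), as it did without the 6 mice with markers of other tissue (-0.57, adjusted p = 0.0169), without WT CNTL replicate 1 (adjusted p = 0.0369) and without WT HFHS replicate 2 or 5 (adjusted p = 0.0472 and 0.0495). In single genotypes the log2 fold change was -0.54 in WT (adjusted p = 0.168, two-sided exact permutation p = 0.0238) and -0.34 in GPx4+/- (adjusted p = 0.371, two-sided exact permutation p = 0.310). The estimate in GPx4+/- was -0.54 without GPx4+/- HFHS replicate 4 (adjusted p = 0.0607) or without the 6 mice (adjusted p = 0.133), and -0.21 without GPx4+/- HFHS replicate 5 (adjusted p = 0.663).

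Since both adaptor genes were lower on HFHS in estimate, the sequence before their starts is shown, as given by RefSeq for GRCm38.p6. Each is the 250 bases before the annotated start, read 5′ to 3′ on the gene's strand, with the letters TTGTTTTG in capitals. This is the reverse complement of CAAAACAA, a form of the insulin response element to which FOXO proteins are known to bind.
Irs1, chr1:82291440-82291689, minus strand: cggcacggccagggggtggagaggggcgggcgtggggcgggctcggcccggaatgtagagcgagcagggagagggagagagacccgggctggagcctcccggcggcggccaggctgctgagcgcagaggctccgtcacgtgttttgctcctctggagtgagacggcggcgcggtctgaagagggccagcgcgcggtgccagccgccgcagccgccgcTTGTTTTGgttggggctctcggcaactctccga
Irs2, chr8:11008930-11009179, minus strand: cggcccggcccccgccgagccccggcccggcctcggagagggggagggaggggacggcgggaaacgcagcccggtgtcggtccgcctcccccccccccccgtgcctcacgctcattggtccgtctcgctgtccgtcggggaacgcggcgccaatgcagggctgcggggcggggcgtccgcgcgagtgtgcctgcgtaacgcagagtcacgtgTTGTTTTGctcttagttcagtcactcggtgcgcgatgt
The match lies 33 to 26 bases before the RefSeq start in Irs1 and 38 to 31 bases before it in Irs2, whose RefSeq start is 471 bases upstream of the GENCODE start. On either strand CAAAACAA is present in 2.21% of 32851 such windows and in 2 of the 13 windows held for 9 of the 10 genes, which are these. GTAAACA, a stronger FOXO site, is present in 3.17% of all windows and in 0 of the 13, and the cAMP response element TGACGTCA in 1.55% and in 0 of the 13. The shorter TGACG, which the full element contains, is present in 17.8% of all windows and in 5 of the 13, among them that of Irs1. Against a median of 6.00 CG dinucleotides over all windows, those of Igf1r, Irs2 and Irs1 hold 42, 34 and 28. The other windows hold 31 in Foxo3, 30 and 6 in Pik3r1, 24 in Grb14, 20 in Foxo1, 5 in Igf1 and 0 to 10 in the 4 of Akt2. A match describes the letters only, and binding was not measured.

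Of the receptors, Igf1r (ENSMUSG00000005533, chromosome 7 from 67952827 to 68233668, plus strand) was at 3.61, 4.43, 4.16, 4.02 and 3.46 scaled TPM in WT CNTL and at 2.84, 3.68, 3.58, 3.46 and 3.27 in WT HFHS. It was at 4.20, 3.74, 3.27, 4.12 and 4.86 in GPx4+/- CNTL and at 3.45, 3.10, 3.6, 3.46 and 3.34 in GPx4+/- HFHS. The means were lower on HFHS in both genotypes, and the ranges overlapped in both. The log2 fold change was -0.20 in WT (standard error 0.0888, adjusted p = 0.272), -0.21 in GPx4+/- (standard error 0.0888, adjusted p = 0.196) and -0.21 over both genotypes (95% confidence interval -0.34 to -0.07, adjusted p = 0.0481, from limma). That call stood close to the threshold. It was kept in 5 of 20 fits without 1 mouse, those without WT CNTL replicate 1 or 5, GPx4+/- CNTL replicate 2 or 3, or WT HFHS replicate 2, and lost without any other (adjusted p up to 0.0867), while the estimate stayed between -0.24 and -0.17. It was also lost without the 6 mice with markers of other tissue (-0.21, adjusted p = 0.145).

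Insr (ENSMUSG00000005534, chromosome 8 from 3122061 to 3279617, minus strand) was at 28.5, 28.7, 26.7, 29.8 and 28.1 scaled TPM in WT CNTL and at 22.3, 26.3, 24.3, 27.1 and 21.2 in WT HFHS. It was at 25.1, 28.1, 26.9, 27.7 and 31.6 in GPx4+/- CNTL and at 25.2, 27.0, 27.6, 24.9 and 28.3 in GPx4+/- HFHS. In WT the HFHS mice lay below the CNTL mice except for replicate 4, whereas in GPx4+/- the ranges overlapped throughout. Its log2 fold change was -0.23 in WT (95% confidence interval -0.37 to -0.09, adjusted p = 0.101, two-sided exact permutation p = 0.0159), -0.06 in GPx4+/- (95% confidence interval -0.21 to 0.08, adjusted p = 0.673; -0.10 without GPx4+/- CNTL replicate 1 and -0.02 without replicate 5) and -0.15 over both genotypes (adjusted p = 0.0632, from limma). The diet effects in the 2 genotypes differed by 0.16 (95% confidence interval -0.04 to 0.36, adjusted p = 0.720 from limma). Over both genotypes Insr passed the threshold without the 6 mice with markers of other tissue (-0.19, adjusted p = 0.0431), without GPx4+/- CNTL replicate 1 (-0.16, adjusted p = 0.0422) and without WT HFHS replicate 4 (-0.17, adjusted p = 0.0349).

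Grb14, the inhibitor of the insulin receptor kinase, was at 83.0 to 101 scaled TPM in WT CNTL, 90.8 to 119 in WT HFHS, 91.7 to 108 in GPx4+/- CNTL and 95.3 to 109 in GPx4+/- HFHS, with overlapping ranges. Its log2 fold change was 0.16 in WT (adjusted p = 0.238), 0.08 in GPx4+/- (adjusted p = 0.612) and 0.12 over both genotypes (95% confidence interval 0.02 to 0.22, adjusted p = 0.130, from limma). Foxo3, a FOXO factor of muscle, was at 26.3 to 37.1 in WT CNTL, 23.0 to 32.1 in WT HFHS, 26.4 to 35.4 in GPx4+/- CNTL and 21.8 to 29.2 in GPx4+/- HFHS. Its log2 fold change was -0.15 in WT, -0.18 in GPx4+/- and -0.16 over both genotypes (adjusted p = 0.197 from limma), and without the 6 mice -0.09, -0.12 and -0.11. In WT it was -0.07 without WT CNTL replicate 5 and -0.09 without WT HFHS replicate 4, and in GPx4+/- -0.11 without GPx4+/- HFHS replicate 5. Pik3r1 (24.8 to 45.2 over the 25 mice), Akt2 (79.5 to 101) and Foxo1 (3.77 to 4.70) had 0 comparisons of 9 with an unadjusted p under 0.05 from limma, and their estimates lay between -0.13 and 0.15, -0.07 and 0.02, and -0.09 and 0.05. For Akt2 over both genotypes the 95% confidence interval of the diet effect ran from -0.16 to 0.04, and for Foxo1 from -0.05 to 0.13.

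**Figure D2:**
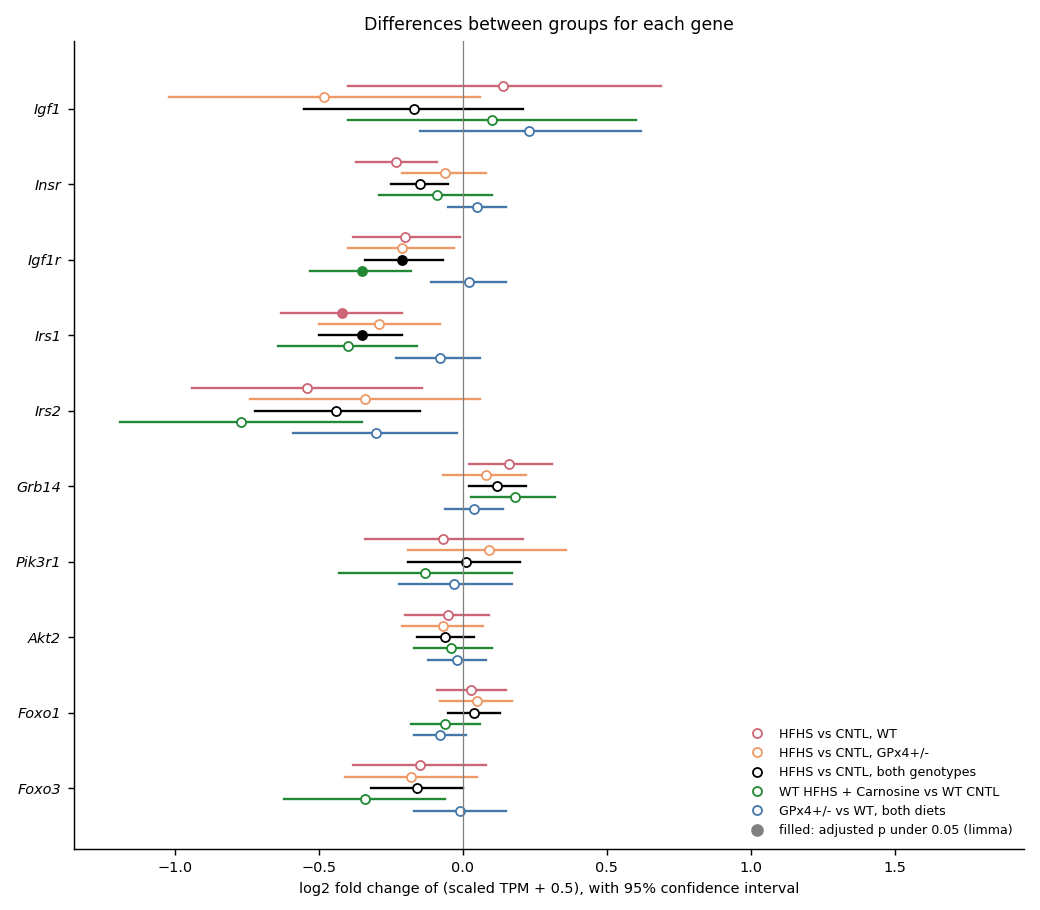
Log2 fold change (horizontal axis) of each gene in 5 comparisons, with its 95% confidence interval from limma. Filled points have an adjusted p under 0.05, which are Irs1 on HFHS in WT (-0.42) and over both genotypes (-0.35) and Igf1r on HFHS over both genotypes (-0.21) and in WT HFHS + Carnosine against WT CNTL (-0.35). The comparisons share mice and are not independent of each other.

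Igf1, the ligand of the IGF1 receptor, is made mostly by liver and also within the heart. It was at 2.01, 1.81, 4.21, 2.03 and 3.33 scaled TPM in WT CNTL and at 4.22, 7.66, 4.67, 3.09 and 1.94 in GPx4+/- CNTL, and between 1.98 and 4.06 in the 15 mice on HFHS. The highest value belonged to GPx4+/- CNTL replicate 2, the mouse with 1053 scaled TPM of hepatocyte markers, led by Alb at 736. Between genotypes on CNTL the log2 fold change was 0.54 (95% confidence interval 0.00 to 1.09, adjusted p = 0.794 from limma), and 0.33 without that mouse (adjusted p = 0.816). The diet estimate was 0.14 in WT (adjusted p = 0.831), and 0.03 to 0.30 when 1 mouse was left out, the ends without WT HFHS replicate 4 and WT CNTL replicate 3. It was -0.48 in GPx4+/- (adjusted p = 0.341) and -0.26 there without GPx4+/- CNTL replicate 2, and the effects differed by -0.63 (95% confidence interval -1.39 to 0.14, adjusted p = 0.720 from limma), or -0.41 without it. The part of liver RNA in these values was not tested.

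The second question was whether GPx4+/- hearts differed from WT in these genes. Of the 10, 0 were called on CNTL (2 at an unadjusted p under 0.05, Irs2 and Igf1), 0 on HFHS (0 at an unadjusted p under 0.05) and 0 over both diets (1 at an unadjusted p under 0.05, Irs2) by limma. The shares called among all genes were 0.0501%, 0.0501% and 0.0584%, and 6.28%, 4.57% and 3.90% had an unadjusted p under 0.05. Irs2 was lower in GPx4+/- in estimate, by -0.40 on CNTL (adjusted p = 0.794, two-sided exact permutation p = 0.0238) and -0.30 over both diets (95% confidence interval -0.59 to -0.02, adjusted p = 1.00 from limma). Insr on HFHS was 0.14 higher in GPx4+/- in estimate (95% confidence interval -0.01 to 0.28, adjusted p = 0.978), and 0.09 without WT HFHS replicate 5. For Igf1r over both diets the interval of the difference was -0.11 to 0.15, and for Akt2 it was -0.12 to 0.08. The interaction of diet and genotype was called for 0 of the 10 genes (0 at an unadjusted p under 0.05, limma), beside 0.00% of all genes (7.14% at an unadjusted p under 0.05).

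The third question was what carnosine changed in WT mice on HFHS. Of the 10 genes, 0 were called by limma (0 at an unadjusted p under 0.05), beside 0.00% of all genes (4.21% at an unadjusted p under 0.05). Igf1r was at 2.94, 2.73, 3.36, 2.79 and 3.03 scaled TPM with carnosine against 2.84 to 3.68 without, a log2 fold change of -0.15 (95% confidence interval -0.34 to 0.03, adjusted p = 0.947, two-sided exact permutation p = 0.0714). Insr with carnosine spread from 20.2 to 32.3, wider than the 21.2 to 27.1 of WT HFHS, with an estimate of 0.14 (95% confidence interval -0.13 to 0.40). This was 0.27 without the 6 mice with markers of other tissue, among them the lowest carnosine mouse, replicate 2 (0.23 without it alone), and the highest WT HFHS mouse, replicate 4, and 0.07, 0.08 and 0.09 without WT HFHS + Carnosine replicate 5 or 4 or WT HFHS replicate 5. Irs2 was at 2.02, 2.59, 2.36, 4.38 and 1.84 with carnosine, with an estimate of -0.23 (95% confidence interval -0.67 to 0.20), which was -0.40 without WT HFHS + Carnosine replicate 4 and -0.14 without replicate 5 of that group.

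Against WT CNTL, which differ from them in both diet and carnosine, the WT HFHS + Carnosine mice had 1 of the 10 genes called by limma in a fit of all 25 mice, where 1.18% of all genes were called. At an unadjusted p under 0.05 there were 5 of the 10, beside 13.6% of all genes. The called gene was Igf1r, which was lower in all 5 mice than in all 5 WT CNTL mice (2.73 to 3.36 against 3.46 to 4.43, ratio of means 0.755). Its log2 fold change was -0.35 (95% confidence interval -0.53 to -0.18, adjusted p = 0.0440, two-sided exact permutation p = 0.00794), and 1.28% of all genes were lower without overlap. The call was kept without WT CNTL replicate 5 or WT HFHS + Carnosine replicate 3 and lost without any other 1 of the 10 mice (adjusted p up to 0.123) and without the 6 mice with markers of other tissue (-0.31, adjusted p = 0.189). Irs2 had the estimate farthest from 0, at -0.77 (95% confidence interval -1.19 to -0.35, adjusted p = 0.0710), and without WT HFHS + Carnosine replicate 4, at 4.38, it was -0.94 (adjusted p = 0.0167). Irs1 was at 1.80 to 3.40 with an estimate of -0.40 (adjusted p = 0.0942), which passed without WT HFHS + Carnosine replicate 5 (-0.49, adjusted p = 0.0440). Foxo3 (-0.34, adjusted p = 0.236) and Grb14 (0.18, adjusted p = 0.236, and 0.10 without the 6 mice) were not called. In this comparison fibroblast markers were above 0 in estimate in 6 of 6 (median 0.30), macrophage markers in 6 of 6 (0.31) and endothelial markers in 5 of 5 (0.16), with 2, 3 and 1 at an unadjusted p under 0.05. Ventricular markers were below 0 in 4 of 6 (median -0.12, 3 at an unadjusted p under 0.05), and atrial and hepatocyte markers in 5 of 5 each (medians -0.76 and -0.46, 0 at an unadjusted p under 0.05), and limma called 0 in each of these lists. Summed levels in WT CNTL and WT HFHS + Carnosine were 262 to 507 and 298 to 454 scaled TPM for fibroblast, 73.8 to 117 and 99.6 to 132 for macrophage, 197 to 251 and 218 to 283 for endothelial, and 41008 to 47345 and 38640 to 42953 for ventricular markers. Those of atrial markers were 127 to 4566 and 91.9 to 580, and of hepatocyte markers 2.21 to 9.58 and 1.48 to 5.13. Their part in the Igf1r result was not tested beyond the value without the 6 mice.

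Other genes of the pathway were taken from 6 lists with 79 genes, of which 69 were tested. In WT, 1 of the 69 was called on HFHS (Akt1), in GPx4+/- 2 (Trib3 and Cat), and over both genotypes 9, of which 6 were higher and 3 lower. The shares called among all genes were 1.18%, 3.34% and 8.33%. Over both genotypes the median log2 fold change of the 69 genes was 0.03. Among the kinases (13 tested, 1 lower, median -0.00), Akt1, the paralogue of Akt2 that is known for growth control, was at 83.8 to 98.6 scaled TPM in WT CNTL and 66.9 to 77.0 in WT HFHS, without overlap, as were 2.24% of all genes in the lower direction. Its log2 fold change was -0.34 in WT (adjusted p = 0.0336), -0.25 in GPx4+/- (adjusted p = 0.0767) and -0.30 over both genotypes (standard error 0.0535, adjusted p = 0.00201, from limma), the last called in all 20 fits without 1 mouse. In WT the Akt1 call was kept without WT CNTL replicate 3 or WT HFHS replicate 1 or 5 and lost without any other mouse (adjusted p up to 0.0817) and without the 6 mice with markers of other tissue (-0.35, adjusted p = 0.0670). In GPx4+/- Akt1 was called only in the fit without GPx4+/- CNTL replicate 3 (-0.31, adjusted p = 0.0249).

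Among ligands and binding proteins (7 tested, 1 higher) the median was 0.20 over both genotypes, 0.46 in WT and -0.11 in GPx4+/-. In either genotype alone 0 were called by limma (5 and 2 at an unadjusted p under 0.05, beside 16.5% and 18.3% of all genes). In the interaction of diet and genotype 0 were called, and 6 of 7 estimates were below 0 (1 at an unadjusted p under 0.05, beside 7.14% of all genes). Of these, Igfbp5, which binds IGFs outside cells, was higher on HFHS over both genotypes (0.74, 95% confidence interval 0.34 to 1.15, adjusted p = 0.0226). It was at 51.1 and 44.0 scaled TPM in WT CNTL replicate 3 and GPx4+/- CNTL replicate 1, the mice with the most atrial marker RNA, and without the 6 mice the estimate was 0.91 (adjusted p = 6.14e-05). Fibroblast markers moved with it, with 6 of 6 higher on HFHS in estimate over both genotypes, 2 of them called, a median of 0.32 and a summed level of 262 to 507 in WT CNTL, 277 to 414 in GPx4+/- CNTL, 330 to 589 in WT HFHS and 311 to 490 in GPx4+/- HFHS, and their part in the Igfbp5 result was not tested. Smooth muscle markers were also higher in estimate in 4 of 4 (0 called by limma, 3 at an unadjusted p under 0.05, median 0.57), with a summed level of 65.8 to 134 in WT CNTL, 91.7 to 142 in GPx4+/- CNTL, 99.6 to 521 in WT HFHS and 72.5 to 245 in GPx4+/- HFHS, and macrophage markers in 6 of 6 (0 called, 2 at an unadjusted p under 0.05, median 0.15), and their part was not tested either. The other receptors and adaptors (7 tested, median 0.04) had 0 called by limma and 1 at an unadjusted p under 0.05.

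Among phosphatases and other inhibitors (12 tested, 2 higher, median 0.05), Inppl1, a lipid phosphatase that opposes phosphatidylinositol 3-kinase, was 0.15 higher (adjusted p = 0.0250) and Trib3, a stress-induced protein that binds Akt, 0.26 higher (adjusted p = 0.0303). In GPx4+/- alone Trib3 was 0.39 higher (adjusted p = 0.0406), a call that was kept without GPx4+/- CNTL replicate 4 or GPx4+/- HFHS replicate 1 or 3 and lost without any other mouse (adjusted p up to 0.112) and without the 6 mice (0.33, adjusted p = 0.208). The Trib3 call over both genotypes was also lost without the 6 mice (0.23, adjusted p = 0.154), and without WT CNTL replicate 1 or 4, GPx4+/- CNTL replicate 1, WT HFHS replicate 2 or 3, or GPx4+/- HFHS replicate 5 (adjusted p up to 0.0608). Among Akt substrates and glucose handling genes (12 tested, 1 lower, median 0.04), Slc2a4, the insulin-responsive glucose transporter, was lower by -0.15 over both genotypes (95% confidence interval -0.25 to -0.06, adjusted p = 0.0473), with 243 to 283 scaled TPM in WT CNTL, 199 to 246 in WT HFHS, 239 to 254 in GPx4+/- CNTL and 200 to 253 in GPx4+/- HFHS, and overlapping ranges in both genotypes. Its call was kept in 6 of 20 fits without 1 mouse, those without WT CNTL replicate 1 or 3, WT HFHS replicate 1 or 5, or GPx4+/- HFHS replicate 3 or 4, and was lost without any other (adjusted p up to 0.0860) and without the 6 mice (-0.16, adjusted p = 0.0784).

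The 18 FOXO target genes, all tested, did not move in 1 direction on HFHS over both genotypes, with 3 higher, 1 lower, 14 not called and a median of 0.01, where 8.33% of all genes were called and their median was -0.00. Bcl6, a transcriptional repressor, was 0.56 higher (adjusted p = 0.0159), Cat, the catalase that degrades hydrogen peroxide, 0.27 higher (adjusted p = 0.00279), and Trim63, a muscle ubiquitin ligase, 0.26 higher (adjusted p = 0.0291). Ccng2, a cyclin of arrested cells, was lower by -0.31 (adjusted p = 0.00820, all from limma). Without the 6 mice with markers of other tissue, Bcl6 and Cat kept the call and Trim63 (adjusted p = 0.0511) and Ccng2 (adjusted p = 0.0621) lost it. Trim63 also lost it without WT CNTL replicate 4, GPx4+/- CNTL replicate 3 or GPx4+/- HFHS replicate 4 (adjusted p up to 0.0513). In GPx4+/- alone Cat was 0.28 higher (adjusted p = 0.0395). This call was kept without GPx4+/- CNTL replicate 2 or 3 or GPx4+/- HFHS replicate 3 and lost without any other mouse (adjusted p up to 0.0958) and without the 6 mice (0.32, adjusted p = 0.0671).

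**Figure D3:**
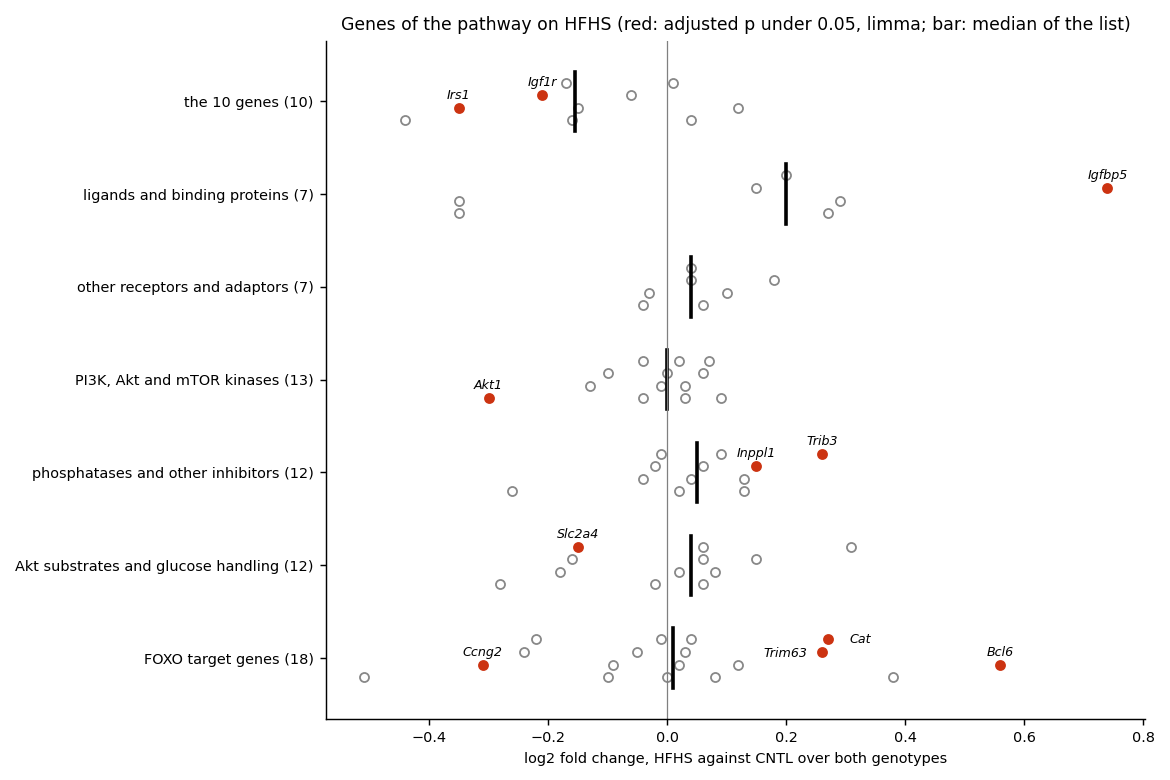
Log2 fold change on HFHS over both genotypes (horizontal axis) of the 10 genes and of the tested genes of 6 pathway lists, 1 point per gene, with the number tested in brackets. Red points had an adjusted p under 0.05 from limma and bars are list medians. The 10 genes have a median of -0.15, and the medians of the lists lie between -0.00 and 0.20.

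For genes with several listed transcripts, the share of the gene's TPM in each transcript was compared, since Insr and Igf1 are known for alternative exons. Insr has a 36-base exon at chr8:3181702-3181737 (GRCm38, minus strand), within the coding sequence, which separates the long receptor form from the short one that also binds IGF2. The exon is in capitals below, with 15 bases of the flanking exons on either side, as in the listed transcript that holds it, and the same junction is shown from a transcript that lacks it.
Insr with the exon: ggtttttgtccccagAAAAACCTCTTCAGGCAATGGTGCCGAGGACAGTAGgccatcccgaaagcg
Insr without the exon: ggtttttgtccccaggccatcccgaaagcg
Insr-203, which holds the exon, took 16.2% ± 3.36 (SD, n = 25) of Insr TPM and Insr-201, which does not, 83.1% ± 3.50. By group the mean share of Insr-203 was 17.7% (WT CNTL) and 17.6% (GPx4+/- CNTL) without the diet and 14.8% (WT HFHS) and 16.3% (GPx4+/- HFHS) on it, and 14.6% with carnosine, with SDs of 1.70 to 4.88 and overlapping ranges. Insr-203 is an annotated fragment, so its share is not the share of the long receptor form.

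Igf1 has a 52-base exon at chr10:87915298-87915349 (GRCm38, plus strand), which changes the end of the precursor and not the mature hormone. It is shown in the same way, with it and without it.
Igf1 with the exon: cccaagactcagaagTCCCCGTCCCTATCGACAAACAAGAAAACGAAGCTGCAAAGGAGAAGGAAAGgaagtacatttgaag
Igf1 without the exon: cccaagactcagaaggaagtacatttgaag
Transcripts with this exon (3 of 8) took 34.1% ± 11.1 (SD, n = 25) of Igf1 TPM, and between 15.0% and 53.4% in single mice. Igf1-205 took 20.1% ± 13.5 in WT CNTL and 36.2% ± 5.91 in WT HFHS, and Igf1-206 27.0% ± 10.8 and 9.96% ± 10.6 (SD, n = 5 each), each with a two-sided exact permutation p = 0.0317 and an adjusted p of 0.444. In GPx4+/- the order was not the same, with Igf1-205 at 38.7% ± 11.9 on CNTL and 22.1% ± 19.2 on HFHS and Igf1-206 at 15.5% ± 14.8 and 15.6% ± 18.3. Igf1-206 holds the exon. Without a test, all transcripts with the exon took 37.5% ± 11.2 and 29.3% ± 3.99 in WT on CNTL and HFHS, and 28.1% ± 10.3 and 41.9% ± 15.4 in GPx4+/-, with overlapping ranges. In total 84 comparisons were made of 14 transcripts of 7 genes, of which 7 had an exact permutation p under 0.05 and 0 an adjusted p under 0.05. With 5 mice in a group the smallest possible p is 0.00794, reached by Grb14-201 between genotypes on CNTL (73.1% against 76.9%, adjusted p = 0.444). Akt2-201 and Akt2-214, which took 60.4% and 28.4% of Akt2 TPM, had 0 such differences. At the low Igf1 level single transcripts were at 0 in some mice, and such values are listed here as 0 without further reading.

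**Figure D4:**
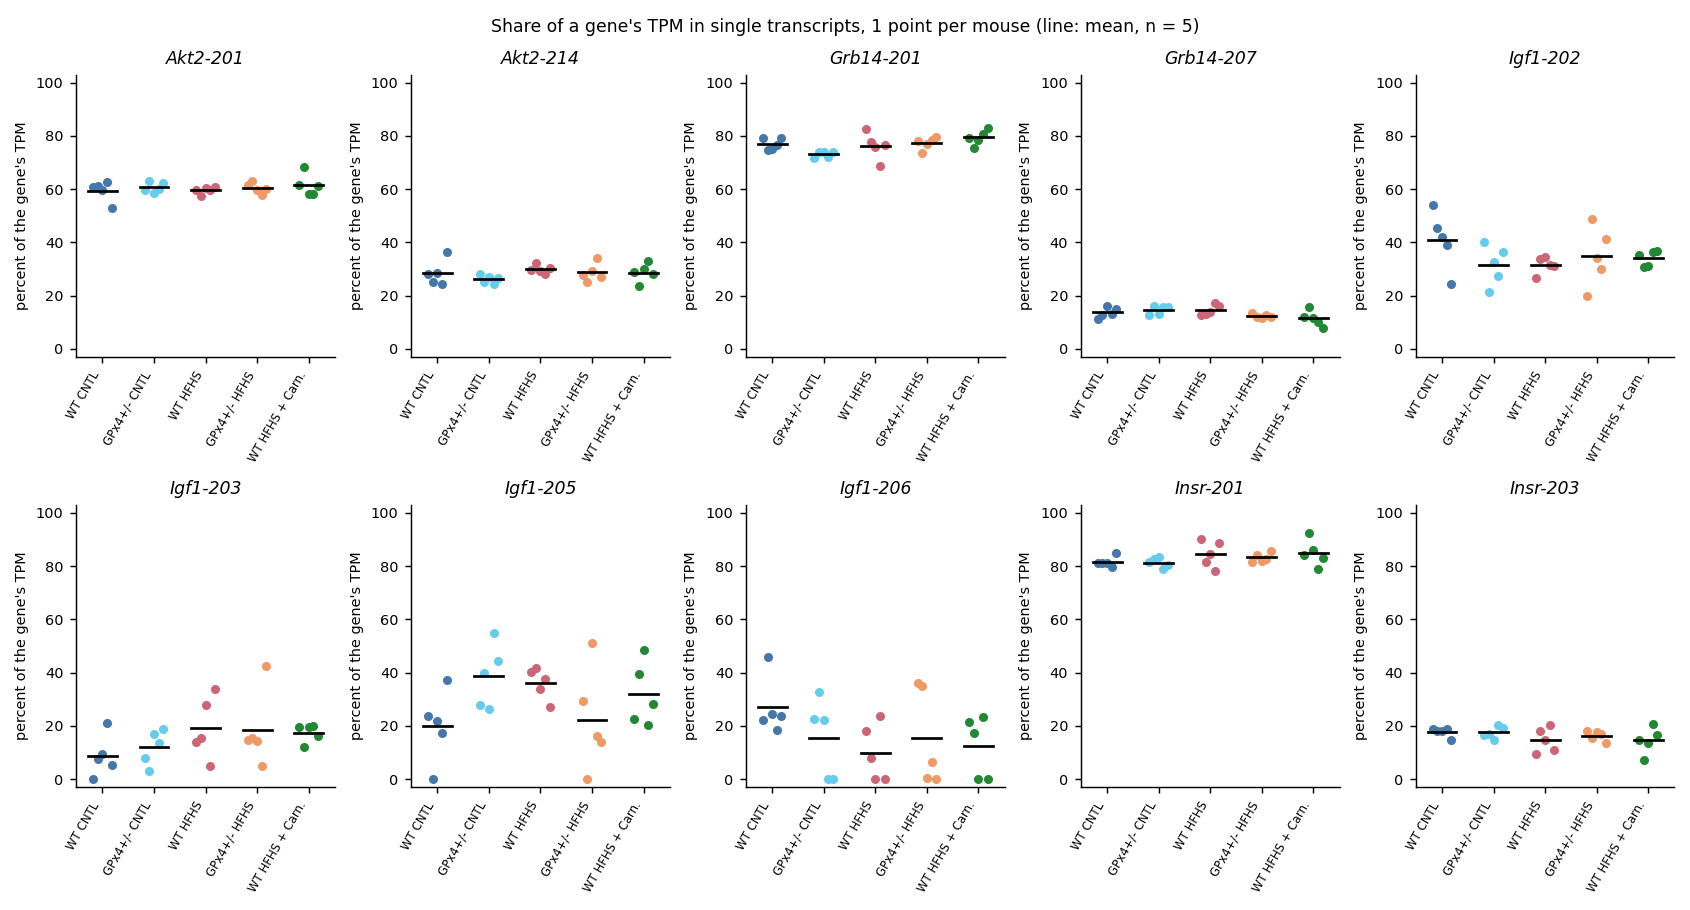
Percent of a gene's TPM (vertical axis, 0 to 100) in the 10 compared transcripts of Insr, Akt2, Grb14 and Igf1, 1 point per mouse, by group, with the mean as a line. Insr-203 lies between 7.31% and 20.7% in all mice, and the Igf1 transcripts spread from 0.00% to 54.9%.

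Between mice, some of the genes varied together. Over the 25 mice, on the log2 scale, Pik3r1 and Foxo3 had a Pearson r of 0.793 (Spearman rho 0.747), 0.891 for deviations from the group means and 0.755 without the 2 mice farthest from the Pik3r1 median. Insr and Irs1 had an r of 0.767 (rho 0.748), 0.822 within groups and 0.672 without the 2 farthest mice, and Irs1 and Igf1r 0.647 (rho 0.608), 0.409 within groups. Grb14 ran opposite to Irs1, with an r of -0.681 (rho -0.635), -0.497 within groups and -0.579 without the 2 farthest mice, and opposite to Igf1r, with an r of -0.657 (rho -0.603), -0.562 within groups and -0.715 without them. These values describe libraries that share the scaling and the groups, and no test was made. The pairs given are those with r farthest from 0 among all pairs of the genes followed. All other pairs lay between -0.464 (Insr and Grb14) and 0.570 (Irs2 and Foxo3), with Irs1 and Irs2 at 0.505. Some were near 0, such as Irs1 and Pik3r1 (-0.0381), Insr and Foxo3 (-0.0493) and Igf1 and Igf1r (-0.0197). Among all genes tested, those most like Pik3r1 over the 25 mice were Fkbp5 (r = 0.908), a gene known to be induced by glucocorticoids, and Tfdp2 (0.872), and those most like Foxo3 were Klhl38 (0.896) and Fam214a (0.878). Insr was most like Irx5 (0.826) and Pdpk1 (0.798), the latter encoding the kinase that phosphorylates Akt, and Irs1 most like Sept6 (0.775) and Insr. Picked as the highest among 11984 genes, such values are high through the choice itself, and they were not tested. Irs2 was most like Eif3g (0.840) and Psmd4 (0.816), Igf1r like Gm14226 (0.840) and Adap1 (0.748), and Grb14 like Ube2r2 (0.794) and Sod1 (0.773). Akt2 was most like Snrpb (0.778) and Cecr2 (0.764), Foxo1 like Id3 (0.789) and Il6st (0.699), and Igf1 like Scd1 (0.770) and Slc7a2 (0.749). For these 2 partners of Igf1 Spearman's rho was lower, at 0.671 and 0.583, and the highest Igf1 value, 7.66 scaled TPM, belonged to GPx4+/- CNTL replicate 2, the mouse with the most hepatocyte marker RNA, whose part in the likeness was not tested.

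**Figure D5:**
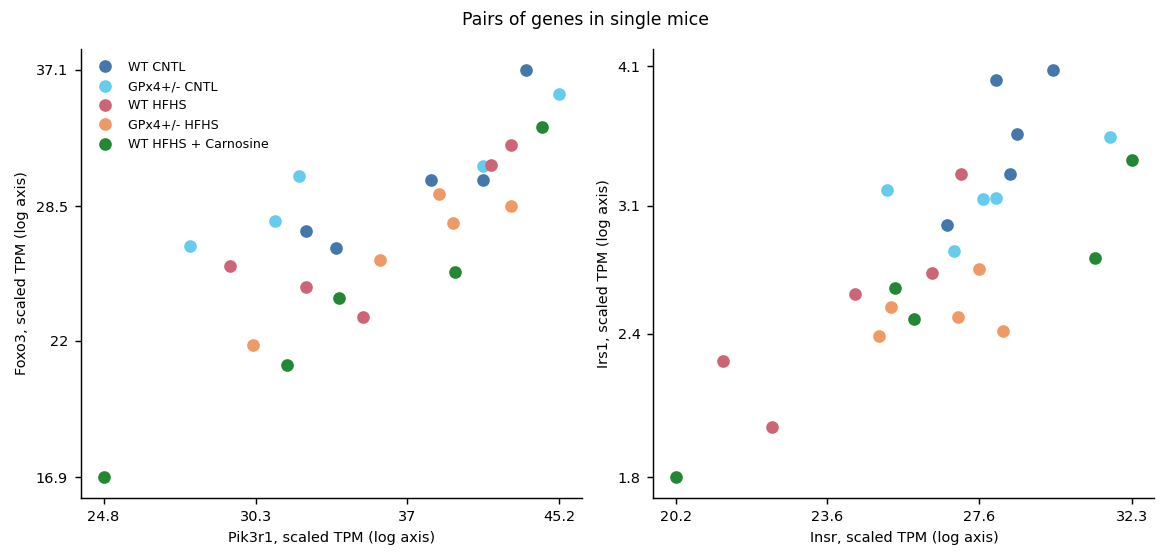
Scaled TPM of Foxo3 against Pik3r1 (left) and of Irs1 against Insr (right), both axes on a log scale, 1 point per mouse, coloured by group. Both pairs rise together over the 25 mice (r = 0.793 and 0.767), the highest r among pairs of the genes followed. The lowest mouse in each panel is a WT HFHS + Carnosine mouse.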

How the data were processed

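The mRNA of 25 mice, from tissue labelled left ventricular, was analysed. The authors deposited TPM per transcript and library, and the submitters' processing notes name kallisto 0.43.1 and sleuth 0.30.0 with GRCm38, whereas the paper's methods describe STAR and DESeq2 on gene counts. Columns were matched to mice by library name, since stated column positions disagree with these names. Of 119215 transcripts, 116772 were matched to GENCODE M21 genes. TPM were summed per symbol and scaled by median ratios over 11879 genes. The 11984 genes whose scaled TPM averaged 1 or more were tested as log2(scaled TPM + 0.5), a scale that understates changes of low genes, with limma 3.58.1 in R 4.3.3 (mean-variance trend), since TPM are not counts. The 4 groups without carnosine were fitted together, carnosine on the 10 WT HFHS mice, and carnosine against CNTL on all 25. Single genes were also compared between 2 groups by a two-sided exact permutation test.

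The 10 genes, pathway and marker lists were chosen with earlier results of these data known. Named besides them are Gpx4, pathway genes called in at least 1 of 9 comparisons and, for each of the 10, the 2 genes with the highest r. Replicate numbers come from the labels, and p-values measure the spread between these mice. In simulated data of the diet design with 200 of 11984 genes changed, limma called 75.5% at a log2 change of 0.5 and 96.0% at 1, and in the carnosine design 59.0% and 89.5%. Same-numbered mice did not deviate together (50 pairs, median r -0.00242), so they were not paired.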

Additional observations from a re-analysis of the deposited data

Results flagged for a closer look

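In 100 sets of 5 mice (20 named genes in 5 groups), the highest or lowest mouse was looked at for a gap to its nearest neighbour that is wide for the group's range (Dixon's criterion), which chance gives in about 1 of 20. There were 6 such values, in 5 mice, where chance gives about 5 over the 100 sets. Irs2 was at 4.93 scaled TPM in GPx4+/- HFHS replicate 4, against at most 2.53 in the others of its group, and this mouse also had 2695 scaled TPM of atrial markers. Igfbp5 was at 51.1 in WT CNTL replicate 3 (next 18.8) and at 44 in GPx4+/- CNTL replicate 1 (next 21), with 4566 and 7347 scaled TPM of atrial markers. Bcl6 was at 10.2 in that same GPx4+/- CNTL mouse (next 5.99). Akt2 was at 96.4 in GPx4+/- HFHS replicate 3 (next 85.4) and Cat at 183 in GPx4+/- HFHS replicate 2 (next 155), and neither of these 2 mice was among the 6 with markers of other tissue.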

How the results depend on the processing

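Of 51 log2 fold changes of named genes recomputed under the alternatives, 0 changed sign (1177 values). Of these values, 1035 kept their side of the threshold, 120 lost a call and 22 gained one. The 51 are a part of the estimates given above. Myh6, Pik3r1 and Akt2 were not among them, nor were Grb14 and Foxo1 on HFHS in GPx4+/-. Signs outside the 51 were less stable. In GPx4+/- the estimates of Grb14 (0.08), Pik3r1 (0.09) and Foxo1 (0.05) were above 0. With TPM as deposited, the means of these genes were lower on HFHS. The number of the 10 genes called moved more. On HFHS in WT, where 1 was called (Irs1), it was 0 with no filter, a minimum of 5, TPM as deposited, all 25 mice in 1 fit, the 2 groups alone or transcripts tested singly, 2 with array weights (Insr and Irs1), and 0 to 1 when 1 mouse was left out. Over both genotypes, where 2 were called, it was 1 with no filter or TPM as deposited, 0 with a minimum of 5, 4 with array weights, 3 without the 6 mice with markers of other tissue (Insr, Irs1 and Irs2, with Igf1r at adjusted p = 0.145), and 1 to 3 when 1 mouse was left out. With quantile normalization it was 2, with Insr in place of Igf1r. Against WT CNTL the carnosine group, with 1 called, had 0 with no filter, a minimum of 5, TPM as deposited, the 2 groups alone, transcripts tested singly or without the 6 mice with markers of other tissue, 3 with array weights, and 0 to 1 when 1 mouse was left out. A minimum of 5 removes Irs1, Irs2, Igf1r, Igf1 and Foxo1 from the test. Other comparisons stayed at 0. TPM as deposited moved the median of all genes by -0.10 on HFHS in GPx4+/- and by -0.11 in the interaction of diet and genotype. Over all genes, 142 were called in WT, 38 with TPM as deposited, 43 with no filter, 74 with the 2 groups alone and 405 with array weights. In GPx4+/- 400 were called, 235 with no filter and 124 with the 2 groups alone, and in the carnosine group against WT CNTL 141, with 28 to 398 under these alternatives.

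With the replicate number as a block, 68 genes were called on HFHS in WT, and of the 10 genes 0 (Irs1 adjusted p = 0.0701), 2 over both genotypes (Irs1 and Irs2, the latter adjusted p = 0.0441) and 1 in the carnosine group against WT CNTL (Irs2, adjusted p = 0.0455), and Igf1r lost both calls (adjusted p = 0.0828 and 0.0821). The numbers mark different animals, with 9 of 50 same-numbered pairs over an r of 0.1. Transcript shares had 0 calls also with protein-coding transcripts alone. Genes at 2 to 5 scaled TPM are at the level where the pseudocount of 0.5 shrinks changes.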
